A study of Mus musculus with 9 samples.

Results

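The immunity-related GTPases (IRG) studied here are 6 genes, Irgm1, Irgm2, Igtp, Iigp1, Tgtp1 and Tgtp2, chosen by gene symbol from the 31167 genes of the expression table. Each symbol matched 1 row, and all 6 genes had a value above 0 in each of the 9 libraries. The study sequenced total RNA from mouse primary renal tubular epithelial cells (TECs) of C57BL/6 kidney, in 3 groups of 3 libraries. Sham was the untreated comparison group. H/R cells were kept for 6 h in glucose-free medium at 1.0% oxygen and then for 18 h in complete medium under normal conditions, a culture model of ischemia and reperfusion. EGR1OV cells were transfected with a plasmid for overexpression of Egr1, a transcription factor, driven by a cytomegalovirus promoter per the study's methods, with the EndoFectin Max reagent at about 50% confluence. No group with an empty plasmid was among those compared, so the Egr1 insert and the transfection with plasmid DNA cannot be told apart. Sham cells had no treatment per the study. The study's methods describe transfection ahead of H/R, whereas its figure caption lists H/R and the plasmid as separate treatments. The caption is followed here, and the time from transfection to harvest of EGR1OV cells is not given. The sources used here do not say whether H/R cells were given the transfection reagent, or whether libraries of a group came from separate animals. The p-values therefore measure only the spread between these libraries.

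IRG proteins are GTPases of cell-autonomous immunity in the mouse, and their genes are classically switched on by interferons. Effector members (Iigp1, Tgtp1 and Tgtp2) load onto the membrane of vacuoles that hold intracellular parasites or bacteria and help to break it. Regulatory members (Irgm1, Irgm2 and Igtp) sit on the cell's own membranes and hold the effectors in their inactive form there, and Irgm1 is also tied to autophagy and to mitochondria. The autophagy conjugation proteins and the guanylate-binding proteins (Gbp) act with them at the vacuole. IRG genes are best known from macrophages, but interferon induces them in epithelial cells as well.

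The sequence that separates the classes is the nucleotide-binding loop of the GTPase, where regulatory proteins carry methionine at the place of a conserved lysine of the effectors. The stretches of coding sequence around this codon are shown because the results are ordered by these classes, and capitals mark the codon itself. They were read from the GENCODE M21 transcripts (GRCm38). The codon is number 89 of Irgm1 and Irgm2, 97 of Igtp and 69 of Tgtp1 and Tgtp2, and it lies in the last coding exon of each gene. Iigp1 has the lysine form and is named only.
Irgm1 (chr11:48866752-48866793, minus strand): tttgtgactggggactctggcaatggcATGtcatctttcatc
Irgm2 (chr11:58219686-58219727, plus strand): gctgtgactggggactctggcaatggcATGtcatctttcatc
Igtp (chr11:58206266-58206307, plus strand): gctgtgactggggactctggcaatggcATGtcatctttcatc
Tgtp1 (chr11:48987658-48987699, minus strand): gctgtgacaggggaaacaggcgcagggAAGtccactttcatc
Tgtp2 (chr11:49059525-49059566, minus strand): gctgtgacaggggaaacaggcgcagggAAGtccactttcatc

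Over the whole coding sequence, the 3 regulatory genes were 64.88% to 69.34% identical to each other, and regulatory and effector genes were 52.17% to 53.12% identical. Iigp1 was 59.29% identical to Tgtp1. Identity here is 100% less the edit distance as a share of the longer sequence. By this measure the least alike promoter windows described below, those of Irgm1 and Tgtp1, still scored 42%. The lower values therefore say little of shared sequence by themselves. Tgtp1 and Tgtp2 were 99.68% identical, a difference of 4 edits over 1248 bases, so they are near-identical copies.

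Promoter windows from RefSeq (GRCm38.p6), 250 bases before to 50 after the start of transcription, were found for 5 of the 6 genes. For interferon signaling, a pair of motifs was searched on both strands, namely GAAANNGAAA, the core letters of the interferon-stimulated response element (ISRE), and TTCNNNGAA, the gamma-activated site (GAS). The 110 bases before the RefSeq start are printed because all 5 windows held the ISRE letters there, and capitals mark the ISRE and GAS matches.
Irgm1 (chr11:48871421-48871530, minus strand): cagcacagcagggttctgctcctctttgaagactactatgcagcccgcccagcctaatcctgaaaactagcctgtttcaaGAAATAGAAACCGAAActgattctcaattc
Irgm2 (chr11:58214867-58214976, plus strand): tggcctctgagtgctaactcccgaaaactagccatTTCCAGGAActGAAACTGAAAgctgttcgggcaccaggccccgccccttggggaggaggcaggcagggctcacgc
Igtp (chr11:58199446-58199555, plus strand): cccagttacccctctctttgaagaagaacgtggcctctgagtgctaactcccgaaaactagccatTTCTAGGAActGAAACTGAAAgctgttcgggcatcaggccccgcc
Tgtp1 (chr11:48992247-48992356, minus strand): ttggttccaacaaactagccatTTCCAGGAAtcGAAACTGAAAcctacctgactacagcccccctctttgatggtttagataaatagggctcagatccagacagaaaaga
Tgtp2 (chr11:49064213-49064322, minus strand): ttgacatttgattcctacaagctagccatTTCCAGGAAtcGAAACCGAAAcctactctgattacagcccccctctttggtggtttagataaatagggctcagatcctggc

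Irgm1 held 2 overlapping ISRE matches, which began 30 and 24 bases before the start, and no GAS match. In the other 4 windows a GAS match stood just before the ISRE match, with 2 bases between them. The ISRE match began 64 bases before the start in Irgm2, 34 in Igtp, 77 in Tgtp1 and 70 in Tgtp2. Of 32851 promoter windows of the same length, 3.44% held the ISRE letters and 8.3% the GAS letters. The pair at this spacing was described after these promoters had been seen, and it occurred in 5 of the 32851 windows (0.0152%), those of Irgm2, Igtp, Tgtp1, Tgtp2 and the related gene Gm12185. The promoter windows of Igtp and Irgm2 were 71.3% identical and those of Tgtp1 and Tgtp2 68%, so matches in them are not independent of shared descent. A core of the Egr1 site, GCGNGGGCG, was found in 0 of the 5 windows and in 5.55% of all windows, which says only that these letters are not there. The RefSeq starts of Irgm2 and Tgtp1 lie 15359 and 1926 bases inside the gene intervals of the expression table.

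**Figure D1:**
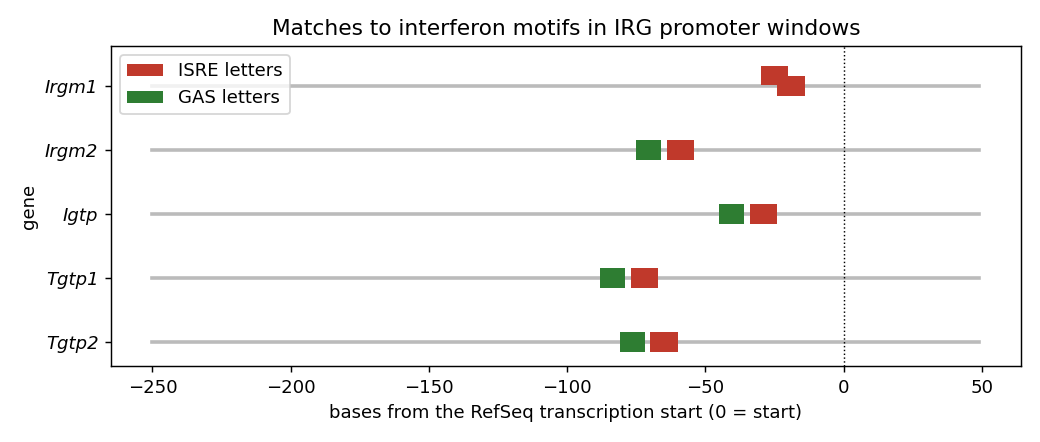
Positions of the ISRE (red) and GAS (green) letters along the promoter windows of 5 IRG genes, in bases from the RefSeq transcription start at 0, with the grey line as the window searched. Irgm1 has 2 overlapping ISRE matches, and in Irgm2, Igtp, Tgtp1 and Tgtp2 a GAS match stands 2 bases before the ISRE match.

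Depth recovered from the values ran from 16183617 to 18384022 reads per library, so libraries were of similar depth. The targeted gene, Egr1, was at 6.20, 6.91 and 6.09 FPKM (fragments scaled to exon length and to library size) in Sham and at 45.7, 42.2 and 40.1 FPKM in EGR1OV, in the direction of the labels. Of 14 tubule markers fixed for this work, 10 passed the filter on low values, and the epithelial genes Krt8, Krt18, Cdh1 and Epcam were abundant. The differentiated-segment markers Slc34a1 and Slc12a3 were at or near 0 and Umod was at 0 in every group. Lrp2 and Aqp1, also markers of differentiated segments, passed the filter and were above 0 in every library. The segment markers were thus mixed, so the cells are called cultured tubular epithelial cells and no segment is named. Of 13 leukocyte markers 8 passed the filter, and their listed genes summed to 144.7 to 149.9 FPKM in Sham, 121.8 to 128 in H/R and 39.25 to 46.39 in EGR1OV. The macrophage genes Lyz2 and C1qa had the highest means in Sham and H/R, and Cd14 had the highest in EGR1OV. By the rule for calls given below, 9.87% of all tested genes were called higher in EGR1OV than in Sham and 6.51% lower. These shares stand beside each marker count in EGR1OV here. Of the 8 leukocyte markers 7 were called lower and Cd14 higher. Most leukocyte markers were thus lower where the IRG genes were higher, and their part in the results was not tested. The listed tubule markers summed to 1929 to 1966 FPKM in Sham, 1785 to 1863 in H/R and 1270 to 1377 in EGR1OV, where 4 of the 10 (Krt8, Krt18, Lrp2 and Aqp1) were called lower and 1 (Epcam) higher. Endothelial markers summed to at most 9.90 FPKM in any library and fibroblast markers to at most 41.8, and of the 4 and 3 tested in EGR1OV, 1 endothelial marker (Pecam1) was lower and 1 fibroblast marker (Col1a2) higher. The part of these shifts in the IRG results was not tested either. In bulk RNA, a change in the number of cells that express a gene and a change in RNA per cell cannot be told apart.

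The comparison of EGR1OV with Sham asked how the IRG genes stood in cells given the Egr1 plasmid. All 6 genes were higher in EGR1OV, from 8.75-fold for Irgm1 to 1618-fold for Iigp1 in reads per unit depth, and the 3 effectors were near the detection limit in Sham. Values were compared as log2(FPKM + 1) in a limma fit with Benjamini-Hochberg adjustment over 13985 genes, those whose mean over the 9 libraries reached 0.5 FPKM. Calls needed both an adjusted p below 0.05 and a 1.3-fold difference. By this rule 9.87% of all tested genes were called higher in EGR1OV and 6.51% lower, and the median change of all genes was 0.02. The 3 effectors passed the filter only through their values in EGR1OV, so their calls add nothing to a count over the family, whereas the 3 regulatory genes passed it in Sham as well. For each of the 6 genes the EGR1OV and Sham values did not overlap, as held for 55.7% of all tested genes.

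Irgm1 (ENSMUSG00000046879, chr11:48861968-48871683, minus strand), the regulator linked to autophagy, was at 27.2, 30.9 and 27.4 FPKM in Sham and at 245.1, 242.6 and 260.2 FPKM in EGR1OV. It was the most abundant IRG transcript in all 9 libraries, and its lowest EGR1OV value lay far above its highest Sham value. The mean rose from 28.5 ± 2.07 to 249.3 ± 9.51 FPKM (SD, n = 3), a change of +3.09 on the log2(FPKM + 1) scale (SE 0.048, adjusted p 8.38e-11 by limma). The values rest on 8348 reads in Sham and 72123 in EGR1OV, a ratio per unit depth of 8.75 with an exact 95% interval of 8.55 to 8.95 that covers counting error only.

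Irgm2 (ENSMUSG00000069874, chr11:58199618-58222782, plus strand), a regulator of the same class, was at 3.38, 4.40 and 3.17 FPKM in Sham and at 74.9, 73.8 and 76.9 FPKM in EGR1OV. The Sham values were low but rested on 193 to 283 reads per library, and the groups did not overlap. Irgm2 rose by 4.04 on the log2(FPKM + 1) scale (SE 0.113, adjusted p 3.85e-09 by limma), with a read ratio of 20.5 (exact 95% interval 19.0 to 22.2).

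Igtp (ENSMUSG00000078853, chr11:58199556-58207591, plus strand), also known as Irgm3, was at 2.80, 3.74 and 2.88 FPKM in Sham and at 102.0, 101.5 and 103.2 FPKM in EGR1OV. Its range overlapped that of Irgm2 in Sham, and it lay above Irgm2 in each EGR1OV library. Igtp rose by 4.65 on the log2(FPKM + 1) scale (SE 0.079, adjusted p 1.26e-10 by limma). Its read ratio was 32.5 (exact 95% interval 29.0 to 36.4). The gene intervals of Igtp and Irgm2 overlap on the same strand, with 162 shared exon bases that make up 8% of Igtp's exons and 4.4% of Irgm2's. Reads from those bases could have been counted for either gene.

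Among the effectors, Iigp1 (ENSMUSG00000054072, chr18:60376029-60392627, plus strand), also known as Irga6, was nearly absent from Sham. It was at 0.039, 0.055 and 0.058 FPKM in Sham and at 88.3, 77.2 and 81.3 FPKM in EGR1OV. The Sham values stand for 2, 3 and 3 reads, which is at or under the floor of 3 reads used here, while EGR1OV held 12787 reads. These reads are the smallest whole numbers that the values of Iigp1 allow, since its exon length in the annotation did not give whole reads. Iigp1 rose by 6.31 on the log2(FPKM + 1) scale (SE 0.062, adjusted p 8.42e-12 by limma). The ratio of reads was 1618 with a wide exact 95% interval of 821 to 3748. Of 13985 tested genes ordered by their rise on this scale, it stood at place 8.

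Tgtp1 (ENSMUSG00000078922, chr11:48985327-48994172, minus strand), an effector of the Irgb6 type, was at 0.15, 0.21 and 0.076 FPKM in Sham and at 84.5, 84.7 and 92.1 FPKM in EGR1OV. It changed by +6.26 on the log2(FPKM + 1) scale (SE 0.075, adjusted p 2.48e-11 by limma) and stood at place 9 by rise. Tgtp2 (ENSMUSG00000078921, chr11:49057194-49064206, minus strand), its near-identical copy, was at 0.25, 0.20 and 0.10 FPKM in Sham and at 46.1, 45.8 and 47.9 FPKM in EGR1OV. Both copies were low in each Sham library, at 4 to 12 reads, and high in each EGR1OV library. Tgtp2 changed by +5.33 (SE 0.072, limma adjusted p 3.88e-11). The read ratios were 586 for Tgtp1 (exact 95% interval 394 to 916) and 256 for Tgtp2 (176 to 388).

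How reads were shared between Tgtp1 and Tgtp2 is uncertain. Of all stretches of 100 bases in the Tgtp1 transcripts, 73.1% also occur in another gene, and 70.3% occur in Tgtp2. For Tgtp2, 76.8% occur in Tgtp1. The corresponding share was 5.16% for Igtp and 3.01% for Irgm2, both with each other, and 0 for Irgm1 and Iigp1. The exons of Tgtp1 also share 223 bases (7%) with Gm12185 on the same strand. Summed, the Tgtp copies were at 0.40, 0.41 and 0.18 FPKM in Sham and at 130.6, 130.5 and 140.0 FPKM in EGR1OV. Tested as 1 row, they rose by 6.67 on the log2(FPKM + 1) scale (limma adjusted p 2.55e-11), so the rise of the pair does not rest on how reads were split.

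**Figure D2:**
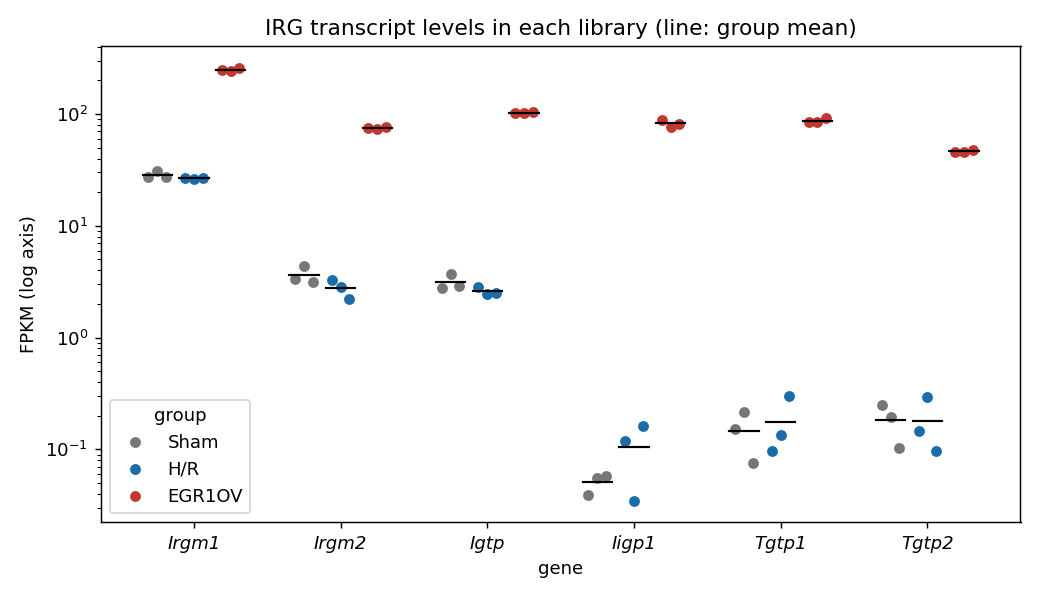
FPKM on a log axis of each IRG gene in the 9 libraries, with Sham in grey, H/R in blue and EGR1OV in red, and a line at each group mean (n = 3). The EGR1OV values of all 6 genes lie between 45.8 and 260.2 FPKM, above every Sham and H/R value of the same gene, and the 3 effectors lie below 0.3 FPKM in Sham and H/R.

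The genes did not rise by the same factor, so the make-up of the IRG transcript pool differed between groups. Summed FPKM of the 6 genes, which is scaled to exon length, went from 35.6 ± 3.32 in Sham to 642.7 ± 18.1 in EGR1OV (SD, n = 3). Irgm1 held 80.4%, 78.2% and 81.3% of this sum in the Sham libraries and 38.3%, 38.8% and 39.3% in the EGR1OV libraries. The share of Igtp went from 8.77% to 15.9% and that of Irgm2 from 10.2% to 11.7% (means of 3), or by 7.14 and 1.52 percentage points. In shares of recovered reads, which are not scaled to length, these differences were 4.55 for Igtp and 3.47 for Irgm2. The effectors were nearly missing from the Sham pool and made up a large part of it in EGR1OV. Iigp1 held 0.143% in Sham and 12.8% in EGR1OV, Tgtp1 0.406% and 13.6%, and Tgtp2 0.512% and 7.25%.

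The 3 regulatory genes together made up 98.7% to 99.3% of the pool in the Sham libraries and 65.8% to 66.8% in the EGR1OV libraries. On a log2 scale their ratio to the effectors was 6.25, 6.39 and 7.14 in Sham and 0.95, 1.01 and 0.99 in EGR1OV. The groups were far apart, with a mean difference of -5.61 (exact two-sided permutation p 0.1, the smallest that 3 against 3 libraries can give). In Sham the ratio rests on the few effector reads, hence its wider spread there.

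**Figure D3:**
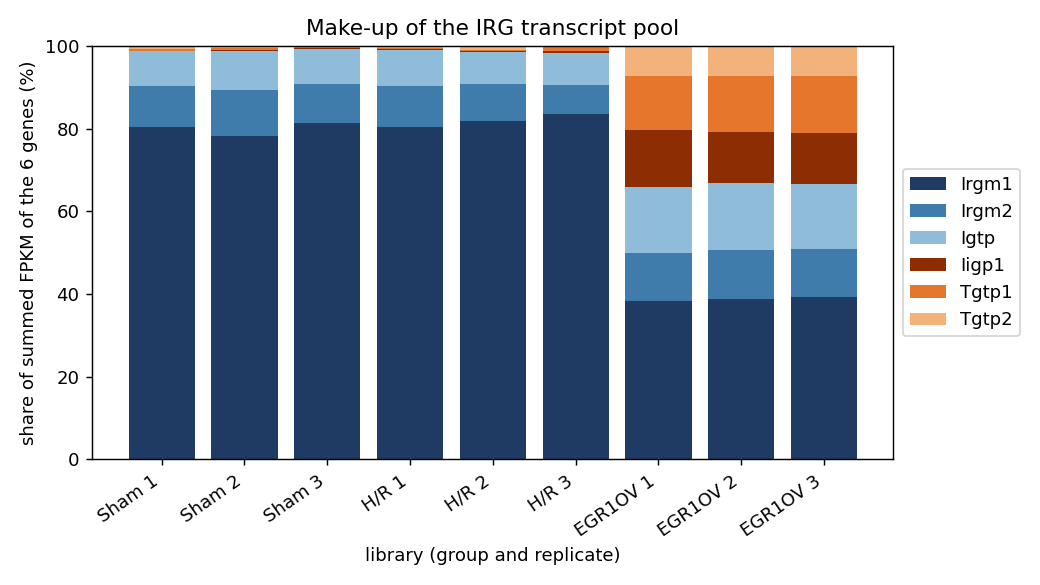
Share of each IRG gene in the summed FPKM of the 6 genes (%) in each library, with regulatory genes in blue and effectors in orange and brown. Irgm1 fills 78.2% to 83.6% of each Sham or H/R bar and 38.3% to 39.3% of each EGR1OV bar, where the 3 regulatory genes end at 65.8% to 66.8%.

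The order of the levels changed with the plasmid. In Sham the order of mean FPKM was Irgm1, Irgm2, Igtp, Tgtp2, Tgtp1 and Iigp1, and the ranges of Irgm2 and Igtp overlapped, as did those of Tgtp2 and Tgtp1. In EGR1OV it was Irgm1, Igtp, Tgtp1, Iigp1, Irgm2 and Tgtp2, and only the neighbours Tgtp1 and Iigp1 overlapped. The ratio of Irgm2 to Igtp was 1.21, 1.18 and 1.10 in Sham and 0.73, 0.73 and 0.75 in EGR1OV (exact two-sided permutation p 0.1, the smallest possible). Tgtp1 lay below or near Tgtp2 in Sham, with ratios of 0.61, 1.10 and 0.73, and at 1.83, 1.85 and 1.92 times Tgtp2 in EGR1OV, a ratio that depends on how shared reads were assigned.

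Whether the genes differed in their rise was compared for all 15 pairs, as the difference of their changes on the log2(FPKM + 1) scale. For 14 pairs the exact two-sided permutation p was 0.1, the smallest possible, and Benjamini-Hochberg adjustment could not bring any below that. Irgm1 rose by less than each other member, by 0.96 less than Irgm2 and by 3.22 less than Iigp1. Iigp1 and Tgtp1 differed by 0.04 (exact two-sided permutation p 0.6), but on this scale the added 1 FPKM hides differences between genes this low in Sham. With 0.1 in its place their changes were 9.09 and 8.50, and their read ratios were 1618 and 586 with intervals that overlap.

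Against Sham, H/R was compared to see how the same genes stood after hypoxia and reoxygenation. None of the 6 was called in the limma fit at the fold limit of 1.2 used for this comparison, where 1.6% of all tested genes were called higher and 2.65% lower. At an unadjusted p under 0.05 in limma there were 2, Irgm2 and Igtp, both lower. No share over all genes at that limit is given here to set beside them. With limma voom on reads recovered from the values, 1 was called, Irgm2. Voom called more genes in all, 995 against 594 in the main fit. The means of the 3 regulatory genes lay below those of Sham within these limits, and the effectors were near the detection limit in both groups.

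Irgm1 was at 26.5, 26.3 and 26.99 FPKM in H/R. These values lay just below the 3 Sham values. It was the single member whose groups did not overlap here (1 of 6), and 33.6% of all tested genes did not overlap in this comparison. Its change was -0.09 (SE 0.048, limma adjusted p 0.254), with a 95% interval of -0.20 to 0.02.

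Irgm2 was at 3.27, 2.86 and 2.23 FPKM in H/R, with 1 of the 3 inside the Sham range. The limma change was -0.30 (SE 0.113, adjusted p 0.124), with a 95% interval of -0.55 to -0.04. With voom on recovered reads the change was -0.40 (adjusted p 0.0302). Igtp was at 2.81, 2.47 and 2.51 FPKM in H/R, a change of -0.20 (SE 0.079, limma adjusted p 0.141). In reads per unit depth the H/R libraries held 0.934 of the Sham level of Irgm1 (exact 95% interval 0.905 to 0.963), 0.757 of Irgm2 (0.675 to 0.849) and 0.822 of Igtp (0.697 to 0.969), intervals that leave out the spread between libraries.

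Iigp1 was at 0.12, 0.035 and 0.16 FPKM in H/R, which is 6, 2 and 9 reads. Tgtp1 was at 0.096, 0.14 and 0.30 FPKM and Tgtp2 at 0.15, 0.30 and 0.096 FPKM. All 3 overlapped their Sham ranges, and no difference was detectable at this depth. The read ratios to Sham were 2.05 for Iigp1 (exact 95% interval 0.837 to 5.48), 1.204 for Tgtp1 (0.681 to 2.15) and 0.999 for Tgtp2 (0.568 to 1.76). These intervals would still allow changes of over 1.5-fold for each effector. In H/R the order of the levels was that of Sham, with the ranges of Tgtp2, Tgtp1 and Iigp1 overlapping from one to the next, and the log2 ratio of regulatory genes to effectors was 6.49, 6.08 and 5.83 (exact two-sided permutation p 0.3 against Sham).

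**Figure D4:**
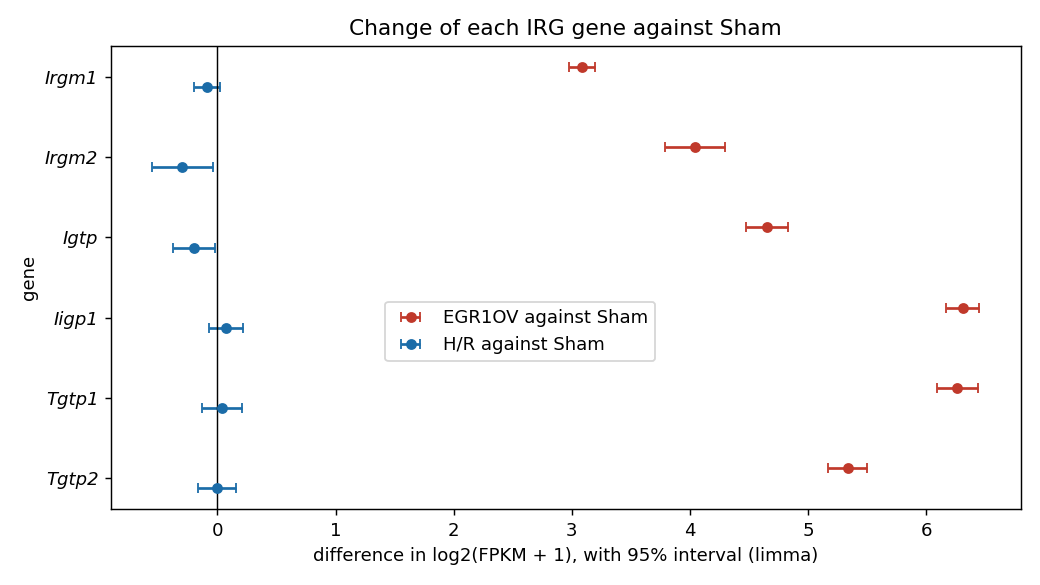
Change of each IRG gene against Sham on the log2(FPKM + 1) scale in EGR1OV (red) and H/R (blue), with 95% intervals from limma. The EGR1OV changes run from 3.09 for Irgm1 to 6.31 for Iigp1, and the H/R changes lie between -0.30 and 0.07.

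EGR1OV and H/R were also compared directly, at the 1.3-fold limit, where 11.9% of tested genes were called higher in EGR1OV and 6.94% lower. All 6 members were called higher, by 3.18 (Irgm1) to 6.23 (Iigp1) on the log2(FPKM + 1) scale, with limma adjusted p of at most 2.24e-09. The 3 effectors again passed the filter only through EGR1OV, and the values of each member did not overlap, as for 58.6% of all tested genes. This comparison shares its EGR1OV libraries with the one against Sham. Egr1 itself was at 8.57, 7.59 and 7.48 FPKM in H/R, a change of +0.26 against Sham (limma adjusted p 0.0348), and at 40.1 to 45.7 FPKM in EGR1OV.

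Genes most like each member were picked as those with the smallest root mean square difference over the 9 libraries, after each gene's log2(FPKM + 1) values had been centred on their own mean. They share the libraries with the members, so the likeness is a description. Nearest to Irgm1 were the ADP-ribosyltransferase genes Parp12 (0.04) and Parp9 (0.06) and the MHC class I gene H2-T22 (0.06). Irgm2 lay nearest to Stat2 (0.10), Parp14 (0.11) and Rnf213 (0.13), and Igtp to Apol9b (0.06), Xaf1 (0.09) and Ifit2 (0.10). Iigp1 and Tgtp1 were each other's nearest gene (0.09), followed for both by the class I gene H2-Q6 and the Isg15 protease gene Usp18. Tgtp2 lay nearest to Apol9a (0.09), Ifi44 (0.12) and Oasl2 (0.15).

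Of 14 further genes listed as IRG family members or relatives, 13 were in the table and 10 were tested. In EGR1OV 9 of the 10 were called higher and 0 lower, beside 9.87% and 6.51% of all tested genes. The median change was 2.15 against 0.02 over all genes, but 6 of the 10 passed the filter only through EGR1OV. Among those that passed it in Sham too, Ifi47 rose from 3.35 ± 0.199 to 42.3 ± 1.38 FPKM (SD, n = 3), a change of +3.32 (limma adjusted p 9.40e-11). The genes 9930111J21Rik1 and 9930111J21Rik2 rose by 0.85 and 1.25. The remaining gene of the 10, Irgq, a distant relative, was at 17.7 FPKM in Sham and 13.6 in EGR1OV, a change of -0.36 that stayed under the fold limit (limma adjusted p 1.98e-05).

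The relatives near 0 in Sham reached lower levels in EGR1OV than the members did. Gm4951 was at 14.7 FPKM in EGR1OV, Gm12250, listed as a processed pseudogene, at 13.1, F830016B08Rik at 9.23, Gm4841 at 4.14, Gm5431 at 4.11 and Gm12185 at 1.24 (means of 3). In H/R 1 of the 10 was called, Gm12250, beside 1.6% of all tested genes called higher and 2.65% lower. Gm12250 was lower by 0.31 (limma adjusted p 0.0308) and stands on 1 to 10 reads per library in Sham and H/R. Ifi47 was higher by 0.19 in H/R (limma adjusted p 0.0462), under the fold limit. Irgc1, Gm8979 and Gm12186 did not pass the filter on low values.

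Genes of interferon signaling, its feedback and its output were listed as 18 genes. Of these, 17 were in the table (Ifng had no row) and 16 were tested. In EGR1OV 12 were called higher and 0 lower, beside 9.87% and 6.51% of all tested genes, but 2 of the 12, Ifnb1 and Nlrc5, passed the filter only through EGR1OV. The ligand gene Ifnb1 was listed at 0 in all 6 Sham and H/R libraries and at 3.05, 3.02 and 1.90 FPKM in EGR1OV, a change of +1.85 on the log2(FPKM + 1) scale (limma adjusted p 2.35e-06). Among the transcription factors that act at the ISRE, Stat2 rose from 3.23 to 70.2 FPKM (+4.08) and Irf9 from 4.27 to 22.6 FPKM (+2.17).

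Irf1, a transcription factor of interferon gamma signaling, rose from 6.09 to 21.2 FPKM (+1.65), and Nlrc5, the class I transactivator, from 0.180 to 12.0 FPKM (+3.47). For these 4 genes the highest limma adjusted p was 6.33e-08. The receptor genes had smaller changes. Ifngr1 changed by -0.37, Ifngr2 by +0.31 and Ifnar1 by -0.10, and these 3 were not called, while Ifnar2 was called at +0.39. In H/R none of the 16 was called by limma, and the median change was 0.01.

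Genes whose proteins act with IRG proteins at the vacuole were listed as 22, and all were tested. In EGR1OV 7 were called higher and 1 lower, where the shares over all tested genes were 9.87% and 6.51%, and 2 of the 7, Gbp5 and Gbp6, passed the filter only through EGR1OV. Of the 7 higher genes 6 were guanylate-binding proteins, led by Gbp3 (1.298 to 138.0 FPKM, +5.92) and Gbp2 (2.60 to 129.5 FPKM, +5.18), and Gbp9 and Gbp7 rose by 4.40 and 3.25. The seventh was Sqstm1, the autophagy adaptor p62, which rose from 296.6 to 557.5 FPKM (+0.91, limma adjusted p 2.75e-09). Of the other 12 autophagy genes on the list 0 were called higher and 1 lower, Map1lc3a (-0.48, adjusted p 1.18e-05 by limma). Another 6 had a limma adjusted p under 0.05 but stayed under the fold limit, 4 higher and 2 lower, the largest being Gabarapl2 (-0.32) and Atg12 (+0.26). The remaining 5, Atg3, Atg5, Atg16l1, Map1lc3b and Becn1, had changes of -0.03 to 0.14.

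In H/R 1 of these 22 was called, Gbp2, which rose by 0.27 (limma adjusted p 0.00822). Over all tested genes 1.6% were called higher in H/R and 2.65% lower. Another 8 interferon-inducible GTPase genes were listed, and 5 were tested. All 5 were called higher in EGR1OV, beside 9.87% of all tested genes, but 3 of them passed the filter only through EGR1OV. The untested Gbp2b went the other way, at 0.190 FPKM in Sham and 0.0070 in EGR1OV (means of 3). Also untested were Gbp10, at 0 and 1.27 FPKM, and Gbp11, at 0.028 and 0.157 FPKM. Among the tested genes the changes were as follows. Mx2 was at +4.66, Mx1 at +3.38, Gbp4 at +2.71, Gvin1 at +0.83 and Gbp8 at +0.73. In H/R limma called none of the 5.

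**Figure D5:**
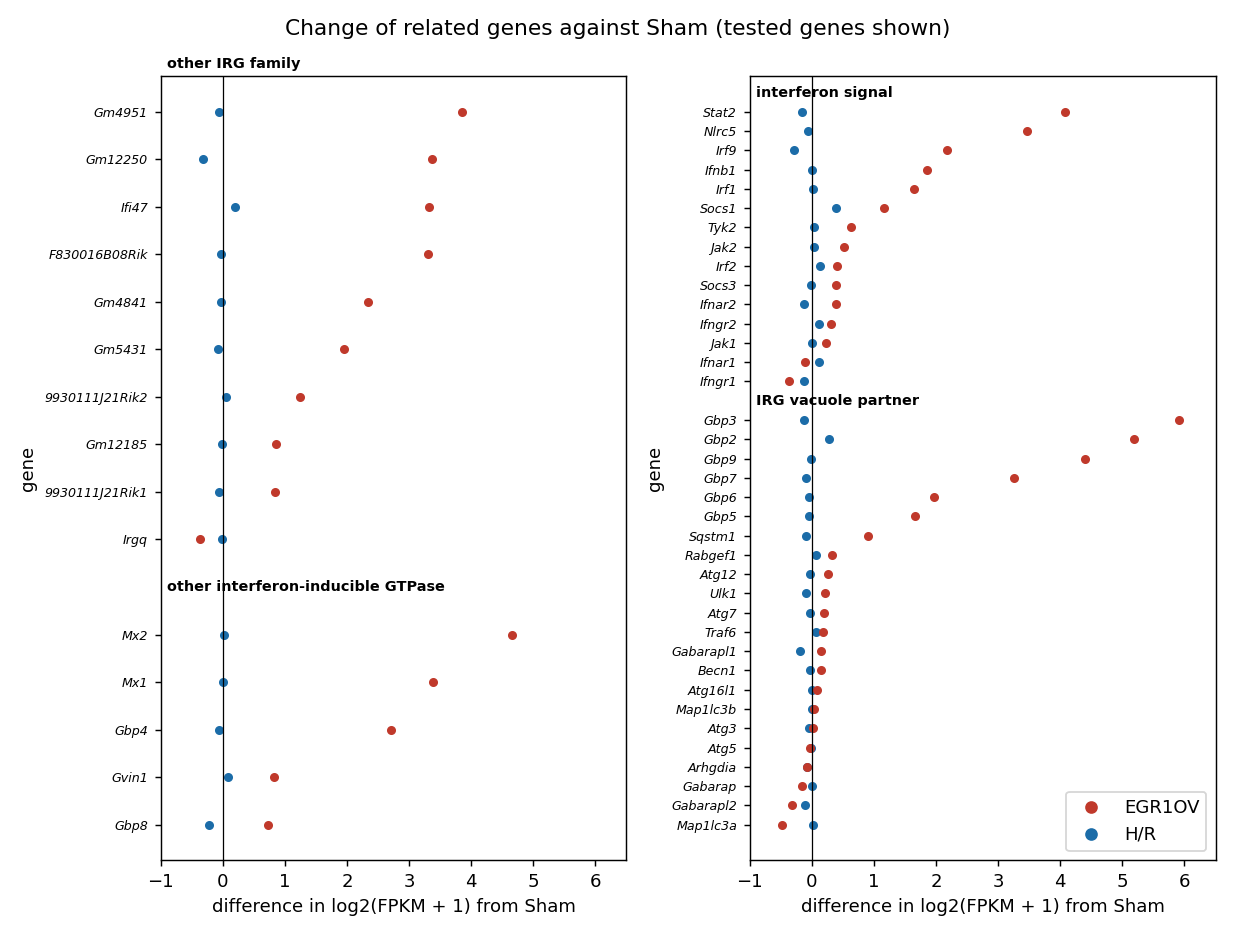
Change against Sham on the log2(FPKM + 1) scale of tested genes of the 4 related lists, with EGR1OV in red and H/R in blue. Gbp3, Gbp2, Mx2, Gbp9 and Stat2 lie above 4 in EGR1OV while the autophagy genes other than Sqstm1 lie between -0.48 and 0.26, and in H/R the changes stay between -0.31 and 0.40.

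Genes next to the members were described to show how far the rise reached along the chromosome. Within 250 kb of a member lay 24 tested genes outside the IRG lists, and 5 of them were called higher in EGR1OV, 1 lower and 18 not at all, beside 9.87% higher and 6.51% lower over all tested genes, with a median change of 0.12. Of the 5, Olfr56, BC023105 and Gm12188 passed the filter only through EGR1OV. The 5 were Psme2b (+1.32), Olfr56 (+1.82), BC023105 (+3.57), Gm12188 (+1.15) and Gm12251 (+0.43), and the 1 lower was Sh3bp5l (-0.46). BC023105, Gm12188 and Gm12251 are listed as pseudogenes. The interval of Olfr56 overlaps those of Tgtp1 and Tgtp2 on the other strand without shared exon bases, and the sources used here do not give whether reads were counted by strand.

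Among all tested genes with a promoter window (9606), 10.3% were called higher in EGR1OV. The share was 30.7% among the 355 with the ISRE letters and 13.2% among the 773 with the GAS letters. It was 8.49% among the 1201 with the Egr1 core. Genes near 0 in Sham could pass the filter through EGR1OV alone, and the ISRE and GAS groups include IRG members. The shares are thus a description, and what lies behind them was not tested. Of the relatives without the GAS and ISRE pair at this spacing, Gm12250 held 2 ISRE matches and a GAS match, and 9930111J21Rik1 held 1 ISRE match. Ifi47, Gm5431 and 9930111J21Rik2 held neither motif in their windows and still rose by 3.32, 1.96 and 1.25. Irgq also held neither and was not called. Windows of relatives on chromosome 18 were not examined gene by gene.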

How the data were processed

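The authors deposited 1 table of FPKM, with 1 column for each library and replicates kept apart. The submitters' processing notes name Bowtie2 2.2.3, HISAT2 2.1.0, TopHat2 and the build mm9, without their roles. Gene positions in the table equal those of GENCODE M21 (GRCm38) for 94.6% of genes, so coordinates are given as GRCm38. Groups came from the sample labels. With M21 exon lengths, low values were multiples of 1 read, which gave the depth, and 94.0% of 162950 recovered values were whole within 0.02 reads.

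Tests used log2(FPKM + 1), a scale that understates changes of low genes, on the 13985 genes whose mean reached 0.5 FPKM. All 9 libraries entered 1 limma fit (version 3.58.1, R 4.3.3, eBayes with trend, two-sided, Benjamini-Hochberg). Every adjusted p is from it unless voom is named. The limits of 1.3-fold and 1.2-fold are the study's, and that for EGR1OV against H/R was set here. Single values were compared by exact permutation. No pairing by replicate number is stated, so no block was used. Deviations of same-numbered libraries from their group means correlated at -0.02 to 0.06, which cannot show whether they shared a culture. Intervals and the floor of 3 reads cover counting error only, since the reads carry no molecular identifiers. The code was tested on simulated data. The members and gene lists were chosen with earlier results of these data known. Named by rule were the members, Egr1, Ifnb1, Irf1, tested IRG relatives, up to 4 called genes per other list with the largest change, and the 3 genes most like each member. Receptors, autophagy genes, markers and neighbours were named after their values were seen, and 1 gene the rule picks is not reported here. Gm8979 and Gm12186 were listed as IRG relatives, but the annotation does not name them so. Python 3.11.15 with pandas 2.3.3, numpy 2.4.6, scipy 1.17.1 and matplotlib 3.10.9 did the rest.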

Additional observations from a re-analysis of the deposited data

Results flagged for a closer look

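The 6 IRG genes responded differently to the 2 treatments, and the difference between the treated groups was tested directly in the limma fit with Benjamini-Hochberg adjustment over 13985 genes. EGR1OV lay above H/R by 3.18 for Irgm1, 4.34 for Irgm2 and 4.84 for Igtp on the log2(FPKM + 1) scale. For the effectors the difference was 6.23 for Iigp1, 6.23 for Tgtp1 and 5.34 for Tgtp2. The limma adjusted p ran from 1.04e-11 for Iigp1 to 2.24e-09 for Irgm2. In each of the 6 genes all 3 EGR1OV libraries lay above all 3 H/R libraries, as for 58.6% of all tested genes, and 11.9% of all tested genes were called higher in this comparison. The 3 effectors passed the filter on low values only through EGR1OV.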

How the results depend on the processing

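The 6 calls against Sham and the 6 against H/R in EGR1OV held with quantile normalization or median-ratio scaling, with a minimum mean of 5 FPKM or none, with 0.1 as the pseudocount, without trend, in fits of only the groups compared, without a fold limit and with voom on recovered reads. Against Sham and against H/R, 2291 and 2641 genes in all were called in EGR1OV as reported. Without a fold limit these were 6417 and 7135 of 13985, and with voom 3010 and 3532. Calls held under these looser settings thus add little. For H/R against Sham the count of all genes was 594 as reported and 995 with voom. With Tgtp1 and Tgtp2 summed, all 5 rows were called. When any 1 of the 9 libraries was left out the counts were 6 and 6, and 0 for H/R against Sham. The count for H/R was 1, Irgm2, with voom on recovered reads, where the change was -0.40 (adjusted p 0.0302), and with a library left out the adjusted p of Irgm2 in limma ran from 0.0740 to 0.314. The cause was not tested. The log2 ratio of regulatory to effector genes, EGR1OV minus Sham, ran from -5.78 to -5.34 with a library left out, and H/R minus Sham from -0.64 to -0.18. On recovered reads, which are not scaled to length, the change in share in EGR1OV was -33.2 percentage points for Irgm1, 3.47 for Irgm2, 4.55 for Igtp, 9.78 for Iigp1, 10.5 for Tgtp1 and 4.97 for Tgtp2. As reported, on FPKM, these were -41.2, 1.52, 7.14, 12.7, 13.1 and 6.74. No called change switched direction. In H/R the changes of Tgtp1 and Tgtp2, which were not called, did switch sign. Tgtp1 (0.03) was -0.01 without Sham 3 and -0.04 without H/R 3, and Tgtp2 (-0.0048) was 0.0015 after median-ratio scaling, 0.02 after quantile normalization and up to 0.05 with a library left out. Their shares in H/R switched sign too with a library left out, down to -0.049 and -0.14 percentage points. The low reads of the effectors in Sham and H/R limit what can be said of them there.

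With the replicate number as a block, 6, 0 and 6 members were called in EGR1OV against Sham, H/R against Sham and EGR1OV against H/R. No pair of same-numbered libraries correlated above 0.1, which cannot show whether they shared more than a number.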
